A study of Rattus norvegicus with 24 samples.

Results

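The genes described here build, fold and ship secreted and membrane proteins: 45 rat genes of the endoplasmic reticulum (ER) and early secretory pathway, listed by name, with earlier results of these data known, and split into 7 steps from folding to retrieval. A probe whose accession maps to the gene was found for 31 of the 45 among 8945 genes with a symbol on the array. All 31 were well above background on all 23 arrays used, so none was lost to a filter on dim probes. No matched probe was found for Sdf2l1, Manf, Xbp1, Syvn1, Sec61b, Ssr2, Spcs1, Spcs3, Stt3a, Sec23b, Sec24d, Lman2, Ergic3 and Kdelr3, and their RNA levels were not analysed here.

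RNA was profiled on Agilent arrays with 1 colour from 4 tissues of Sprague-Dawley rats aged 12 weeks. Prostate, skin and forebrain came from males castrated 3 days earlier, which then received dihydrotestosterone (DHT, 10 mg/kg, 1 intraperitoneal dose) or vehicle, while the labels give the ovary animals as females that were intact and had the same dose. Tissue was taken 16 h after the dose. Each of the 8 groups of tissue and treatment had 3 arrays, and forebrain vehicle array 3, which failed the authors' quality control according to its label, was left out. Vehicle and DHT males shared the castration. The series' own design text names castrated males for every tissue. The labels do not say from which part of the prostate or skin the RNA came.

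Marker genes followed the tissue labels: the mean log2 level of luminal prostate markers was 2.86 to 3.55 on prostate vehicle arrays and -3.68 to -2.32 on forebrain vehicle arrays, that of keratinocyte markers 4.89 to 6.19 in skin, of neuronal markers 3.18 to 3.35 in forebrain and of granulosa and theca markers 2.13 to 3.07 in ovary. Between 54.6% and 97.0% of probes were well above background on an array. Prostate vehicle array 3 and ovary vehicle arrays 1 and 3 stood apart by a compressed signal range. The skin arrays differed in their content of skeletal muscle RNA, with a mean marker level of -2.15 to 9.88 on vehicle arrays and 8.91 to 11.3 on DHT arrays. Leaving out any skin array gave no call there, among the ER genes or any other genes. Those fits therefore cannot show whether muscle content affected the ER genes in skin. Forebrain arrays differed in the same markers, with a mean level of -0.38 to -0.33 on vehicle arrays and -4.56 to -3.02 on DHT arrays. The part of this difference in the forebrain changes was not tested.

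Proteins bound for secretion enter the ER through the Sec61 channel, are glycosylated and folded there by chaperones and disulfide isomerases, and leave in COPII vesicles, while COPI vesicles bring escaped ER proteins back. The unfolded protein response (UPR) adjusts this capacity: the sensors IRE1, ATF6 and PERK detect misfolded protein in the ER lumen, and the factors XBP1 and ATF6 then raise transcription of chaperone genes through promoter elements called ER stress response elements (ERSE). The rat prostate is a secretory gland whose epithelium regresses and stops secreting after castration, and DHT is the androgen that acts in it through the androgen receptor.

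Because several chaperone genes are classical targets of the UPR factors, the promoters are shown first. The window is the RefSeq sequence of the GRCr8 assembly from 250 bases before to 50 bases after the gene's start, and a window was given for 39 of the 45 listed genes. Both strands were searched for the ERSE (CCAAT and CCACG with 9 bases between them), for ERSE-II (ATTGG and CCACG with 1 base between), for a UPR element core (TGACGTGG) and for an androgen response element (AGAACA and TGTTCT with 3 bases between). Over all windows 1 pair of matches of different kinds shared bases, the ERSE-II and the UPR element core of Hyou1. The following 7 windows carry the elements, with ERSE and ERSE-II letters in capitals, for the 5 genes that rose at least 4-fold in prostate less Pdia4, whose window has neither element, and for Hsp90b1, Herpud1 and Canx.
Hspa5 (chr3:38452766-38453065, plus strand): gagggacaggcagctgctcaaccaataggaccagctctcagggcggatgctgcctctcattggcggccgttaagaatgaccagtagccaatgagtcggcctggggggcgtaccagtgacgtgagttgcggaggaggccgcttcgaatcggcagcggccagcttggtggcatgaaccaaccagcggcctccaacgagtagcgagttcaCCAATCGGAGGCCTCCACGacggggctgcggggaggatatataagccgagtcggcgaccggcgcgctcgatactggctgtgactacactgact
Hsp90b1 (chr7:23012244-23012543, minus strand): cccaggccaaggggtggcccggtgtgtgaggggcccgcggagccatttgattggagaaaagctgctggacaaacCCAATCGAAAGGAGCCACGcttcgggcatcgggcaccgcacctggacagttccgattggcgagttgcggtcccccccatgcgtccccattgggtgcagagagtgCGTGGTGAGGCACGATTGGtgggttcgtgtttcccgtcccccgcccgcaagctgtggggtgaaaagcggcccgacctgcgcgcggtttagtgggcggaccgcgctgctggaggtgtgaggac
Calr (chr19:40213117-40213416, plus strand): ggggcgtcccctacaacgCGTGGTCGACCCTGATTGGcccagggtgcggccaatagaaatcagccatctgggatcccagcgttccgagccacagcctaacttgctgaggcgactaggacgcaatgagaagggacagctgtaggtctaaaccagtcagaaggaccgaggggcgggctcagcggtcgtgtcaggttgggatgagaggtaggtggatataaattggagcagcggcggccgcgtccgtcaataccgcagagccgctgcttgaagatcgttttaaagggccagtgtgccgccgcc
Creld2 (chr7:121789134-121789433, plus strand): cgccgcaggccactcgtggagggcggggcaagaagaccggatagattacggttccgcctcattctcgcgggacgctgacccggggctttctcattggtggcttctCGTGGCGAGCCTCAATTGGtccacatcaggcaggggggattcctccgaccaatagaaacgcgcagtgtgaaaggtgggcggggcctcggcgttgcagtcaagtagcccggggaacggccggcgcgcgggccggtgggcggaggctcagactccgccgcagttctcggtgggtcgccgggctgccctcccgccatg
Hyou1 (chr8:53602632-53602931, plus strand): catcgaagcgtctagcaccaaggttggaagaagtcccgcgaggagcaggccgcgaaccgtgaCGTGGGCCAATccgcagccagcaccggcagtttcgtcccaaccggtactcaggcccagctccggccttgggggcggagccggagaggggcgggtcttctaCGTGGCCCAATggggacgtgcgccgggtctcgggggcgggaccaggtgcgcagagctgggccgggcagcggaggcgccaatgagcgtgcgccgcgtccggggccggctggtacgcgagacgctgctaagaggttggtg
Herpud1 (chr19:10614658-10614957, minus strand): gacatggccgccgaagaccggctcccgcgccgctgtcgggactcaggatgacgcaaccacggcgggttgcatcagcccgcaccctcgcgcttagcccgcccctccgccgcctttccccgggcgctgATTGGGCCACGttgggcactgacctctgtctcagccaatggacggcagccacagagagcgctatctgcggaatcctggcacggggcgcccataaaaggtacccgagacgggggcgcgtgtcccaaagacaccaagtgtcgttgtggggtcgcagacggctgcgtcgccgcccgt
Canx (chr10:35157808-35158107, minus strand): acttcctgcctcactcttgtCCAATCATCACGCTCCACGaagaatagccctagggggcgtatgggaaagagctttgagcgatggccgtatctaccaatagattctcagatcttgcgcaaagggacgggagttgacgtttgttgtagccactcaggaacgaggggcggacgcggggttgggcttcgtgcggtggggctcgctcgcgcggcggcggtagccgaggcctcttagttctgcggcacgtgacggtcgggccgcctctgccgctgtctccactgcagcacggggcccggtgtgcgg

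The ERSE was found in the windows of 7 of the 39 listed genes, namely Hspa5, Hsp90b1, Calr, Canx, Creld2, Dnajc3 and Xbp1, against 0.0657% of all 33469 rat windows. In Hspa5 it lay from base -43 to base -25 relative to the start. Hsp90b1 held 2 copies, from -176 to -158 and, on the opposite strand, from -72 to -54. ERSE-II was found in Dnajb11, Herpud1 and Hyou1, against 0.0508% of all windows. Hyou1 held 2 copies in the window printed above, while a second RefSeq window of the gene, at chr8:53602822-53603121, held none of the elements. The UPR element core was found in the windows of Arf4, Copb1, Copb2, Hyou1 and Kdelr3, against 0.595% of all windows. No listed gene held the androgen response element in this window, which 0.0149% of all windows did. The last 5 bases shared by both ERSE forms, CCACG, were alone present in 31 of the 39 genes and in 31.6% of all windows. A match describes letters and is not evidence of binding.

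DHT raised RNA of the folding and secretion genes in prostate. Of the 31 measured genes, 24 rose and 0 fell (limma, Benjamini-Hochberg adjusted p under 0.05 over 25366 genes), where 9.67% of all genes tested were called, 5.09% higher and 4.57% lower. The rises ran from 1.57-fold for the coat protein gene Copb2 to 13.3-fold for Creld2. At least 2-fold was reached by 20 genes and at least 4-fold by 5, namely Creld2, Hyou1, Calr, Pdia4 and Hspa5. All 31 estimates were above 0, with a median log2 change of 1.38 against 0.06 over all genes. The 7 genes that were not called, Canx, P4hb, Ssr4, Rpn2, Ddost, Sec31a and Copb1, had log2 changes of 0.43 to 1.06 and adjusted p of 0.0528 to 0.136. On every one of the 27 genes measured on all 6 prostate arrays, each DHT array lay above each vehicle array, which held for 18.5% of all genes measured so. The other 4 (Hspa5, Hyou1, P4hb and Rpn1) rest on 2 DHT arrays, because their spots on DHT array 2 were marked as outliers by the scanner software, and with those spots kept 25 genes rose and all 31 separated the groups. In whole tissue, a change in the share of secretory cells and a change in RNA per cell cannot be told apart. DHT and vehicle arrays lay on different slides, so treatment and slide cannot be told apart either.

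**Figure D1:**
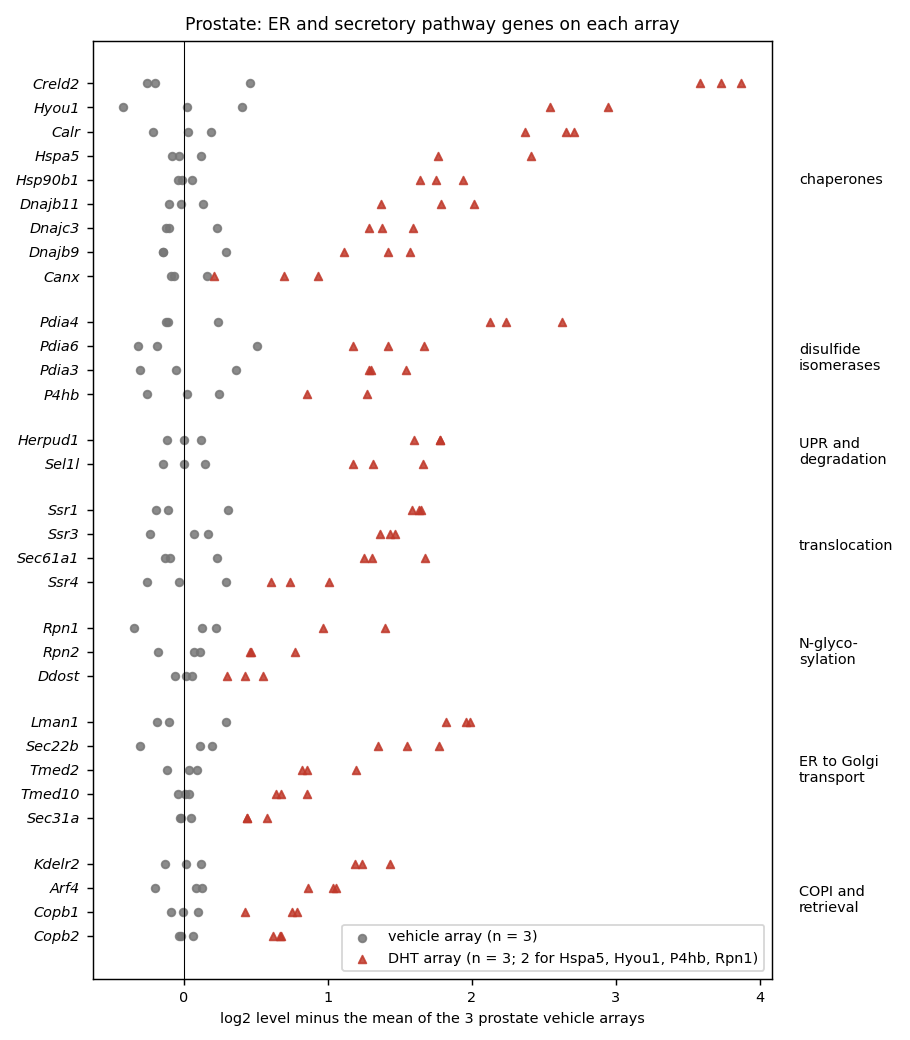
Each point is 1 prostate array: the horizontal axis gives the log2 level of a gene minus the mean of its 3 vehicle arrays, and genes are grouped by step. DHT arrays (triangles) lie to the right of all vehicle arrays (circles) on every line, with the widest gaps among chaperones (Creld2, 3.73) and narrow ones for the glycosylation genes Ddost (0.43) and Rpn2 (0.56).

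Levels below are log2 processed signals, set against the 75th percentile of their array and given for replicates 1, 2 and 3 in that order. Among the chaperones, 8 of 9 rose, with a median log2 change of 1.78. Creld2, an ER protein induced by ER stress, measured 2.42, 2.47 and 3.14 on the vehicle arrays and 6.27, 6.55 and 6.41 on the DHT arrays. Its lowest DHT array thus lay far above its highest vehicle array, and the change was 3.73 ± 0.23 (log2, SE; adjusted p = 0.00303). Calr encodes calreticulin, a lectin that holds newly glycosylated proteins until they are folded. It measured 2.96, 3.21 and 3.37 with vehicle and 5.89, 5.83 and 5.55 with DHT, a rise of 2.58 ± 0.18 (adjusted p = 0.00324). Hsp90b1, the ER member of the HSP90 family, measured 4.97, 5.06 and 4.99 with vehicle and 6.65, 6.76 and 6.94 with DHT, a rise of 1.78 ± 0.15 (adjusted p = 0.00411). The vehicle arrays of Hsp90b1 were nearly level with each other, and the groups did not overlap.

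Hspa5 encodes BiP, the ER member of the HSP70 family, which also binds the UPR sensors. It measured 5.66, 5.71 and 5.86 with vehicle and 8.15 and 7.51 on DHT arrays 1 and 3, a 4.25-fold rise (adjusted p = 0.0107). The outlier spot on DHT array 2 read 7.15, also above every vehicle array. Hyou1, a nucleotide exchange factor for BiP, measured 4.25, 4.69 and 5.07 with vehicle and 7.62 and 7.21 on the same 2 DHT arrays, a 6.70-fold rise (adjusted p = 0.00897). A second, dimmer probe of Hyou1, measured on all 6 arrays, rose by 2.77 ± 0.26 (adjusted p = 0.00456). With the mean of both probes the change was 1.72 and not called (adjusted p = 0.236), since on DHT array 2 that mean holds the dimmer probe alone. The genes of the BiP partners with a J domain rose too, Dnajb11 by 1.72 ± 0.21, Dnajc3 by 1.42 ± 0.17 and Dnajb9 by 1.37 ± 0.20 (adjusted p of 0.00773, 0.00824 and 0.0137). Canx, the membrane-bound relative of calreticulin, was the chaperone gene not called: -0.91, -0.93 and -0.68 with vehicle and -0.63, 0.09 and -0.15 with DHT (change 0.61 ± 0.22, adjusted p = 0.136). Its groups did not overlap, but DHT array 1 lay close to vehicle array 3.

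Of the 4 disulfide isomerases, which form and rearrange disulfide bonds, 3 rose (median 1.40). Pdia4 measured 0.62, 0.63 and 0.98 with vehicle and 2.87, 3.36 and 2.98 with DHT, a rise of 2.33 ± 0.20 (adjusted p = 0.00436). Pdia3, which works with calreticulin and calnexin, measured 2.51, 2.27 and 2.93 with vehicle and 3.87, 4.11 and 3.86 with DHT, a rise of 1.37 ± 0.21 (adjusted p = 0.0150). Pdia6 measured 5.80, 5.94 and 6.63 with vehicle and 7.79, 7.54 and 7.30 with DHT, a rise of 1.42 ± 0.26 (adjusted p = 0.0246). In all 3 genes vehicle array 3 stood highest of its group, and the groups did not overlap. P4hb, which encodes protein disulfide isomerase itself, changed by 1.06 ± 0.24 on 2 DHT arrays and was just outside the threshold (adjusted p = 0.0528), and its change was 1.03 with the outlier spot kept (adjusted p = 0.0390).

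Both measured genes of ER degradation rose. Herpud1, an ER membrane protein strongly induced by the UPR, measured 3.37, 3.60 and 3.48 with vehicle and 5.26, 5.26 and 5.08 with DHT, a rise of 1.72 ± 0.15 (adjusted p = 0.00443). Sel1l, the adaptor of the ubiquitin ligase that removes misfolded ER proteins, measured -1.09, -1.24 and -1.39 with vehicle and -0.07, 0.42 and 0.07 with DHT, a rise of 1.38 ± 0.18 (adjusted p = 0.0103). Both genes separated the groups with room to spare.

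Among the 4 translocation genes, 3 rose (median 1.41). Sec61a1, which encodes the channel through which nascent chains enter the ER, measured 0.12, 0.15 and 0.48 with vehicle and 1.499, 1.93 and 1.55 with DHT, a rise of 1.41 ± 0.19 (adjusted p = 0.0105). Ssr1 and Ssr3 encode subunits of the translocon-associated protein complex beside that channel. Ssr1 measured 1.94, 2.03 and 2.44 with vehicle and 3.73, 3.78 and 3.77 with DHT, a rise of 1.62 ± 0.18 (adjusted p = 0.00652). Ssr3 measured 3.27, 3.58 and 3.67 with vehicle and 4.98, 4.87 and 4.94 with DHT, a rise of 1.42 ± 0.16 (adjusted p = 0.00713). The DHT arrays of both genes were closer together than the vehicle arrays. Ssr4, a further subunit of the complex, changed by 0.78 ± 0.20 (adjusted p = 0.0622).

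N-glycosylation was the step with the lowest median change, 0.56, and 1 of its 3 genes rose. All 3 encode subunits of the oligosaccharyltransferase that are not its catalytic centre. Rpn1 measured 6.38, 6.85 and 6.95 with vehicle and 8.12 and 7.69 on DHT arrays 1 and 3, a rise of 1.18 ± 0.26 at the edge of the threshold (adjusted p = 0.04999). With the outlier spot of DHT array 2 kept its adjusted p was 0.0616, while a second, dimmer probe of the gene rose by 1.30 (adjusted p = 0.00953). With the mean of both Rpn1 probes the change was 0.80 (adjusted p = 0.200), and on DHT array 2 that mean too holds the dimmer probe alone. Rpn2 measured 5.10, 5.39 and 5.34 with vehicle and 5.73, 5.74 and 6.04 with DHT, a change of 0.56 ± 0.17 (adjusted p = 0.0877). Ddost measured 4.78, 4.86 and 4.90 with vehicle and 5.14, 5.40 and 5.27 with DHT, a change of 0.43 ± 0.14 (adjusted p = 0.118). In Rpn2 and Ddost the DHT arrays were all above the vehicle arrays, by a small margin.

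Of the 5 genes of transport to the Golgi, 4 rose (median 0.95). Lman1, which encodes ERGIC-53, a lectin that carries glycoproteins out of the ER, measured 2.20, 2.29 and 2.68 with vehicle and 4.35, 4.37 and 4.21 with DHT, a rise of 1.92 ± 0.18 (adjusted p = 0.00515). Sec22b, a SNARE protein of vesicle fusion, measured 1.44, 1.86 and 1.94 with vehicle and 3.52, 3.30 and 3.10 with DHT, a rise of 1.55 ± 0.20 (adjusted p = 0.00961). Both showed a gap of more than 1 log2 unit between the groups. Tmed2, a p24 cargo protein, measured 3.27, 3.42 and 3.47 with vehicle and 4.24, 4.58 and 4.20 with DHT, a rise of 0.95 ± 0.17 (adjusted p = 0.0216). Its partner Tmed10 rose by 0.72 ± 0.14 (adjusted p = 0.0287), and Sec31a, of the outer COPII coat, changed by 0.48 ± 0.14 (adjusted p = 0.0769).

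Of the 4 genes of COPI transport and retrieval, 3 rose (median 0.82). Kdelr2, a receptor that returns chaperones with the KDEL signal to the ER, measured 0.31, 0.46 and 0.56 with vehicle and 1.63, 1.88 and 1.68 with DHT, a rise of 1.28 ± 0.15 (adjusted p = 0.00773). Arf4, a small GTPase of vesicle coats, measured 4.84, 5.17 and 5.12 with vehicle and 6.10, 6.08 and 5.90 with DHT, a rise of 0.98 ± 0.16 (adjusted p = 0.0176). Copb2, a subunit of the COPI coat, measured 3.61, 3.71 and 3.62 with vehicle and 4.26, 4.31 and 4.32 with DHT, a rise of 0.65 ± 0.13 (adjusted p = 0.0324). Copb2 had the smallest rise among the genes called, yet its arrays within a group were among the closest. Copb1, with nearly the same change (0.65 ± 0.16), was not called (adjusted p = 0.0571).

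A second probe was present for 10 of the genes, and all 10 second probes rose in prostate, by 0.69 to 2.77 on the log2 scale. The largest difference from the first probe in prostate was 0.48. In ovary, skin and forebrain 0 second probes were called. Their sign was opposite to that of the first probe for 3, 3 and 5 of the 10 genes in this order. Leaving out each prostate array in turn gave 16 to 26 genes called. The call of 16 genes was kept every time. For Hspa5 and Hyou1, which are among the 16, leaving out DHT array 1 or 3 leaves 1 DHT array, which is assumed to vary like the vehicle arrays. Arf4, Copb2, Dnajb9, Pdia3, Pdia6, Rpn1, Tmed2 and Tmed10 lost theirs at least once. Vehicle array 3, whose signal range was compressed (interquartile range 4.99 on the log2 scale against 6.82 and 6.71 on vehicle arrays 1 and 2), was the one without which 26 genes were called. The background count is less steady than that of the members: without single prostate arrays, between 630 (without DHT array 2) and 2915 (without vehicle array 3) of all genes were called, against 2452 with all arrays, and it was 1310 without DHT array 1, 1037 without DHT array 3, 708 without vehicle array 1 and 741 without vehicle array 2.

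Set beside the promoters printed above, the 6 measured genes with an ERSE had a median log2 change of 1.93 in prostate, and 5 of them rose. The 9 genes with an ERSE or ERSE-II had a median of 1.78, with 8 risen, and the 18 measured genes whose window held neither had a median of 1.02, with 12 risen. All of these 9 but Herpud1 belong to the chaperone step, whose own median was 1.78, and Dnajb9 was the measured chaperone gene with neither element. Element and step therefore cannot be told apart here. No window was given for Pdia3, Pdia6, Sec61a1 and Kdelr2, which rose by 1.37, 1.42, 1.41 and 1.28. Canx, whose window holds an ERSE, was the gene with either element that was not called, while Pdia4, with neither, rose 5.02-fold. The ERSE was present in 14 other rat genes, of which 4 were measured in prostate. None of them was called: Birc5 had a log2 change of -0.70, Zfp57 of -0.22, Hnrnpa3 of 0.08 and Zfand2a of 0.39 (adjusted p of 0.258, 0.759, 0.776 and 0.255, limma).

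In ovary, skin and forebrain none of the 31 genes was called, and no gene of the array was either (0% of 31329, 25725 and 28078 genes tested). At an unadjusted p under 0.05 there were 0, 1 and 2 of the 31 genes, against 10.8%, 4.97% and 27.6% of all genes. The median log2 change of the 31 genes was 0.14 in ovary, 0.02 in skin and 0.04 in forebrain, against -0.23, 0.04 and -0.01 over all genes. The intervals limit how large a rise could have been missed: the upper 95% bound lay below the prostate estimate for 24 genes in ovary, 27 in skin and 30 in forebrain. The largest upper bounds were 1.73, 1.32 and 0.997 on the log2 scale. The DHT arrays all lay above the vehicle arrays for 4 genes in ovary, 6 in skin and 8 in forebrain, against 2.53%, 6.03% and 24% of all genes there. Forebrain had 2 vehicle arrays, and ovary vehicle arrays 1 and 3 had a compressed signal range (interquartile ranges of 3.78 and 3.20 against 6.16 on vehicle array 2). Without ovary vehicle array 2, 8175 genes of the array were called in ovary, 8094 of them lower with DHT, and still none of the 31. Without forebrain vehicle array 1, 48 genes were called in forebrain, 7 higher and 41 lower, and again none of the 31.

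**Figure D2:**
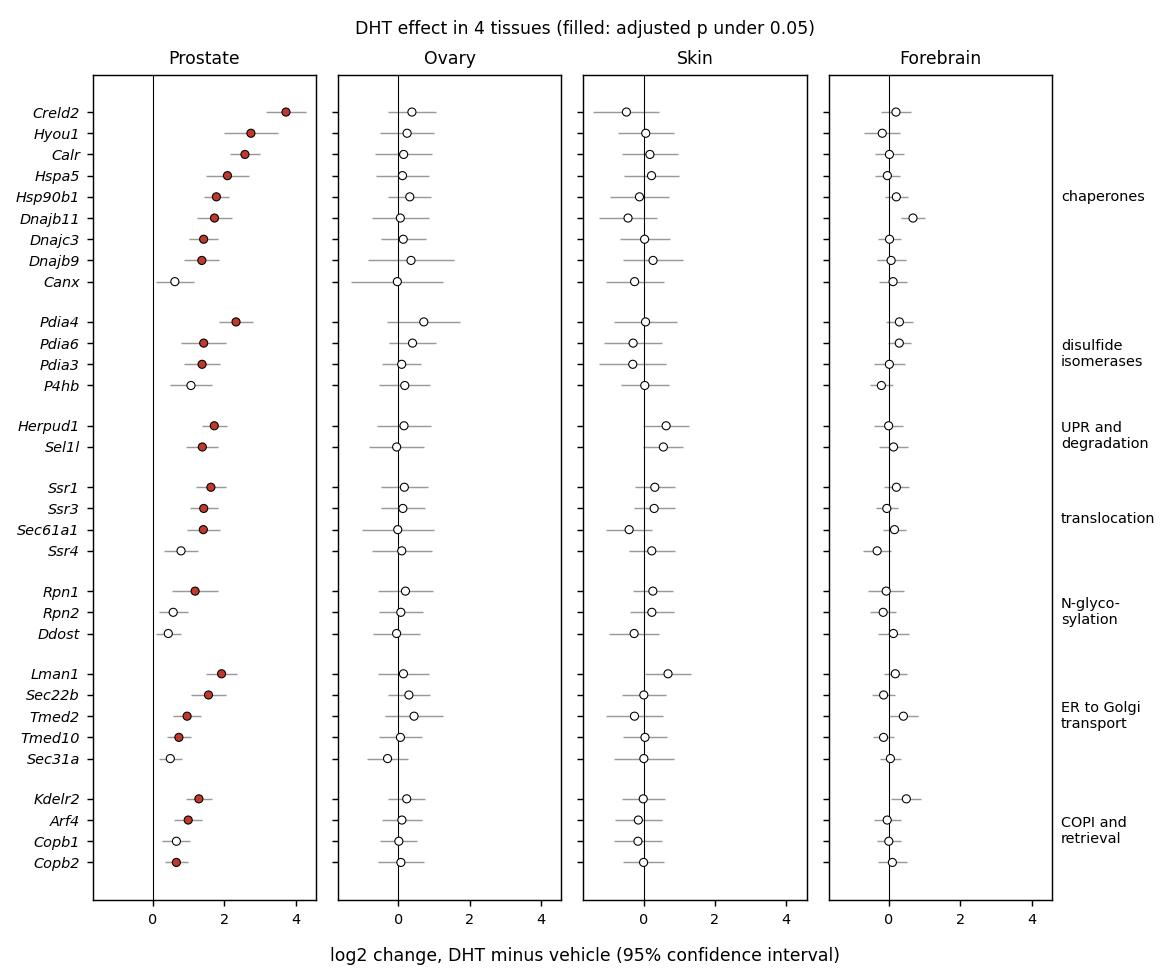
Log2 change with DHT (point) and its 95% confidence interval (line) for each of the 31 genes in 4 tissues, filled where the adjusted p was under 0.05. The 24 filled points are all in prostate, and in ovary, skin and forebrain the points sit around 0, between -0.49 and 0.71.

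The genes that moved most in these 3 tissues were these. In ovary Pdia4 measured 1.60, 2.003 and 0.68 with vehicle and 1.93, 2.61 and 1.88 with DHT, a change of 0.71 ± 0.42 with overlapping groups (adjusted p = 0.529). Sec31a had the lowest ovary change, -0.31 ± 0.24, from 0.87, 0.57 and 0.69 with vehicle to 0.25, 0.66 and 0.30 with DHT (adjusted p = 0.629). The ovary groups overlapped in both genes.
In skin Lman1 measured 1.57, 1.19 and 1.40 with vehicle and 2.36, 1.93 and 1.92 with DHT, a change of 0.68 ± 0.27 with no overlap (adjusted p = 0.754). Creld2, the gene with the largest rise in prostate, had the lowest change in skin: it measured 1.02, 0.40 and 0.01 with vehicle and -0.56, 0.12 and 0.40 with DHT (-0.49 ± 0.39, adjusted p = 0.764). Both measured degradation genes had positive changes in skin, Herpud1 of 0.63 and Sel1l of 0.55, each with DHT arrays above vehicle arrays and an adjusted p of 0.754. A second, dimmer probe of Herpud1 had a smaller skin change, 0.12 ± 0.35 (adjusted p = 0.933, limma).
In forebrain Dnajb11 measured -1.29 and -1.17 with vehicle and -0.55, -0.65 and -0.48 with DHT. The groups were apart, and the change was 0.67 ± 0.13 (adjusted p = 0.0740). When only probes well above background on all 5 forebrain arrays were tested, Dnajb11 was the 1 gene called of the 31, against 6.83% of all genes, 3.1% higher. Ssr4 had the lowest forebrain change, -0.33 ± 0.15, from 4.52 and 4.86 with vehicle to 4.43, 4.33 and 4.30 with DHT (adjusted p = 0.226), and it was 0.05 with forebrain vehicle array 3 included.

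Whether the DHT effect differed between tissues was tested directly, in 1 fit of 36105 genes over the 23 arrays with slide as a random block. The effect differed for 15 of the 31 genes (moderated F test, adjusted p under 0.05), against 1.85% of all genes. Creld2 (adjusted p = 0.000213), Calr (0.00175), Hyou1 (0.00383), Sec22b (0.00890) and Lman1 (0.00912) had the smallest p. Set against the mean of the 3 other tissues, the prostate effect was higher for 19 genes and lower for 0, where 1.42% of all genes were higher, and the median difference was 1.29 against 0.20 over all genes. Calr shows the contrast: its effect was 2.58 in prostate and 0.15, 0.17 and 0.01 in ovary, skin and forebrain (in ovary on vehicle arrays 1 and 2). Against single tissues, the prostate effect was higher for 14 genes against ovary, 17 against skin and 11 against forebrain, where 1.2%, 1.1% and 0.67% of all genes were higher. The median difference of the 31 genes was 1.26, 1.21 and 1.25 in this order, against 0.54, -0.05 and -0.01 over all genes. The ovary contrast was thus shifted upward over the whole array. The 15 genes of the F test became 9 without prostate DHT array 2, 9 without DHT array 3, 5 without vehicle array 1, 7 without vehicle array 2 and 5 with forebrain vehicle array 3, and the 19 became 12 with that forebrain array. For all 31 genes the largest of the 4 estimates was that in prostate.

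The prostate already stood high before DHT. Among vehicle arrays, 25 of the 31 genes had a higher level in castrated prostate than the mean of ovary, skin and forebrain, and 0 had a lower one, where 20.4% of all genes were higher and 47.2% differed in either direction. The median difference was 1.01, against -0.35 over all genes. Dnajc3 (2.40), Ssr1 (1.95) and Creld2 (1.92) led. The vehicle level was highest in ovary rather than prostate for Calr, Herpud1, Hyou1, Pdia4, Sec31a and Ssr3, although ovary and prostate were not compared by a test there. With DHT, all 31 genes were higher in prostate than the mean of the other tissues, where 23.4% of all genes were, and the median difference was 2.28 against -0.10 over all genes. All 31 then had their highest mean in prostate. Levels are compared here between tissues for the same probe, and the scale sets each array's 75th percentile equal. The animals differed in sex and gonadal state between ovary and the other tissues, which cannot be told apart from tissue.

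**Figure D3:**
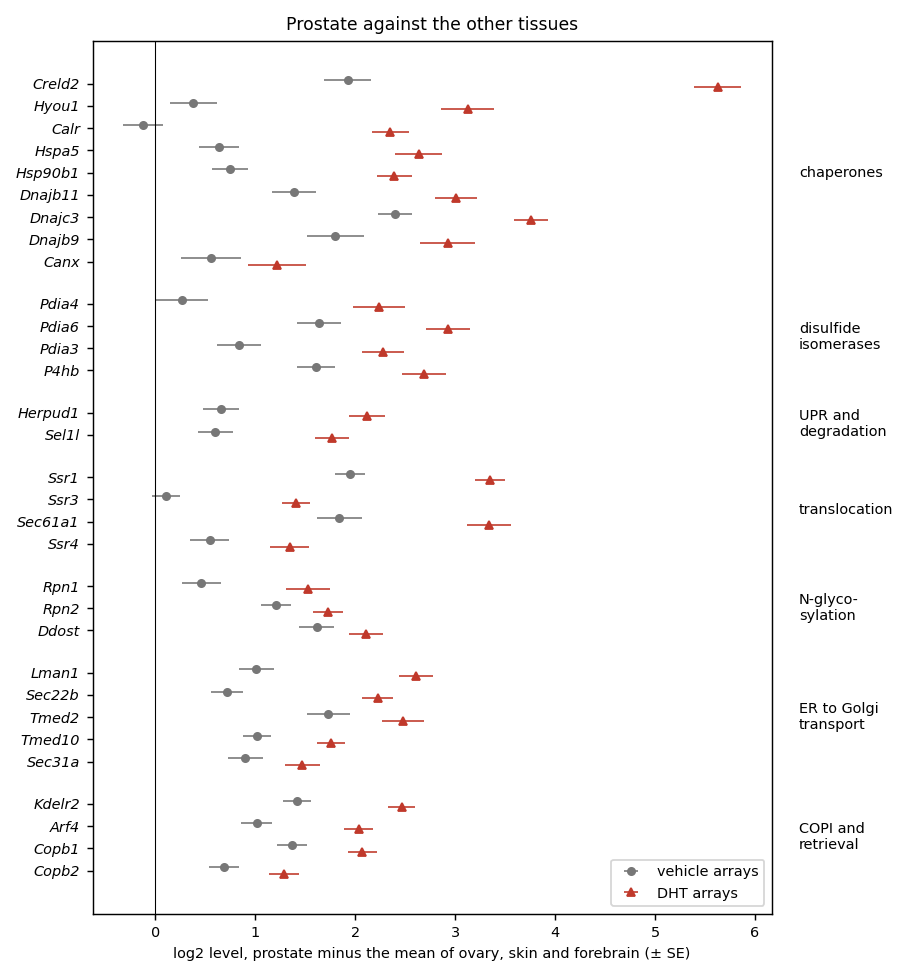
Log2 level in prostate minus the mean of ovary, skin and forebrain for each gene, among vehicle arrays (circles) and DHT arrays (triangles), with the standard error as a line. On every line the DHT difference lies to the right of the vehicle difference, and Calr moves from -0.12 to 2.35.

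The same order appears on single arrays. Over the 26 genes measured on all 23 arrays, the mean log2 level was 2.54 to 2.81 on prostate vehicle arrays and 3.91 to 4.10 on prostate DHT arrays, with no overlap. It was 2.18 to 2.28 with vehicle and 2.22 to 2.63 with DHT in ovary, where the groups overlapped. In skin it was 1.104 to 1.58 with vehicle and 1.20 to 1.41 with DHT, and the DHT arrays lay within the vehicle range. In forebrain it was 0.97 to 1.08 with vehicle and 1.09 to 1.17 with DHT, close together but apart.

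**Figure D4:**
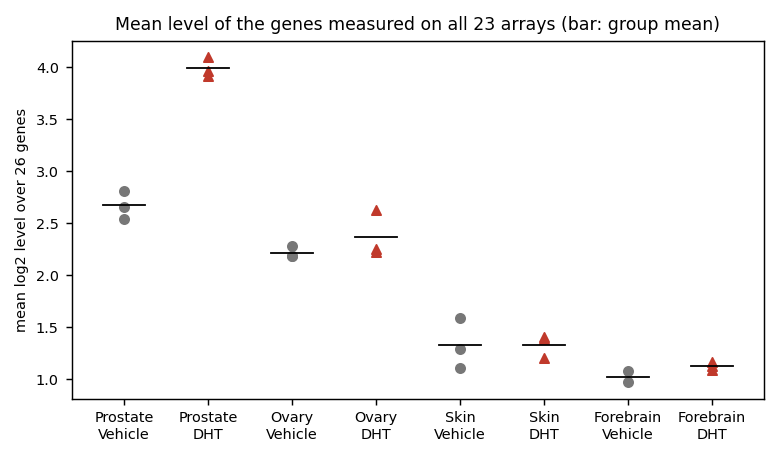
Mean log2 level over the 26 genes measured on all arrays, 1 point for each of the 23 arrays, with a bar at the group mean. The 3 prostate DHT arrays (3.91 to 4.10) lie above all other arrays. Forebrain arrays (0.97 to 1.17) lie lowest but for skin vehicle array 3 (1.104), which falls within their range.

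Other genes of the pathway, taken from 8 lists by function, were tested beside the members. Of 188 listed genes 97 were tested in prostate, of which 32 rose and 3 fell (median log2 change 0.57). Over all genes tested there 5.09% were higher and 4.57% lower (median 0.06), and the counts of single lists were not tested against those shares. Of the 14 further folding genes 5 rose and 1 fell (median 0.65). Fkbp11, a prolyl isomerase of secretory cells, rose 4.93-fold, and Erp29, an ER protein related to disulfide isomerases, 2.51-fold. Ppib (1.02) and Mogs (0.95), a prolyl isomerase and a glucosidase of the ER, rose as well, while Rcn2, a calcium-binding ER protein, fell by 0.60 on the log2 scale (adjusted p of 0.00486, 0.00558, 0.0320, 0.0219 and 0.0448 in this order). Of 13 further degradation genes 6 rose (median 0.61), among them Selenos (1.38), Vcp (1.11), the ATPase that extracts proteins from the ER membrane, Edem2 (1.06) and Derl1 (0.70).
Of 10 genes of targeting and the translocon 3 rose (median 0.58): Tram1 (1.23), Srp54a (0.99), of the signal recognition particle, and Srprb (0.91), of its receptor. Of 11 further glycosylation genes 3 rose (median 0.30): Gfpt1 (1.26), Magt1 (0.996) and Dad1 (0.90), the last an oligosaccharyltransferase subunit like Rpn1. The glycosylation lists thus had the lowest median both among the members' steps and among the further lists of the secretory route.
Of 17 further genes of transport to the Golgi 8 rose (median 0.80), led by Sar1b (3.54-fold), the GTPase that starts COPII coats, and Surf4 (3.30-fold), a cargo receptor. Of 17 further genes of COPI and Golgi tethers 6 rose (median 0.63), led by the tether Uso1 (2.73-fold). No gene of these lists was called in ovary, skin or forebrain, where no gene of the array was. These 35 calls fell to 7 without prostate DHT array 2, 9 without DHT array 3, 10 without vehicle array 1 and 9 without vehicle array 2.

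Of 11 listed sensors and factors of the UPR, 7 had a matched probe and were tested, of which 1 rose and 0 fell. Ern1 and Atf6, the genes of the sensors IRE1 and ATF6, had no matched probe and were not tested. Over all genes tested in prostate 5.09% were higher and 4.57% lower. Counts in the small lists here were not tested against those shares. Atf6b rose by 0.68 at the edge of the threshold (adjusted p = 0.0499), while Eif2ak3, which encodes PERK, had a change of -0.72 (adjusted p = 0.0513) and Bhlha15, a factor of secretory cells, one of 1.27 (adjusted p = 0.155). In the PERK and ATF4 branch, which slows translation and turns on amino acid and death genes, 0 of 8 rose and 2 fell (median -0.40). Trib3 fell by 1.65 on the log2 scale (adjusted p = 0.0111) and Atf3 by 1.62 (adjusted p = 0.0196). Atf4 had a change of 0.46 and Ddit3, which encodes CHOP, one of 0.16 (adjusted p of 0.265 and 0.712). Chaperones of other compartments were tested for contrast: of 21 cytosolic and mitochondrial ones 2 rose, with a median of 0.18. This count of 2 in 21 is not below the 5.09% of all genes that were higher, and the median over all genes was 0.06. The count was 0 without prostate vehicle array 1 and without vehicle array 2, and 1 without vehicle array 3, without DHT array 1 and without DHT array 3. The 2 genes were Dnaja1 (1.83) and Hsph1 (0.97), while Hspa8 (0.16), Hsp90aa1 (0.09) and the mitochondrial Hspd1 (-0.02) were not called (adjusted p of 0.661, 0.839 and 0.935).

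**Figure D5:**
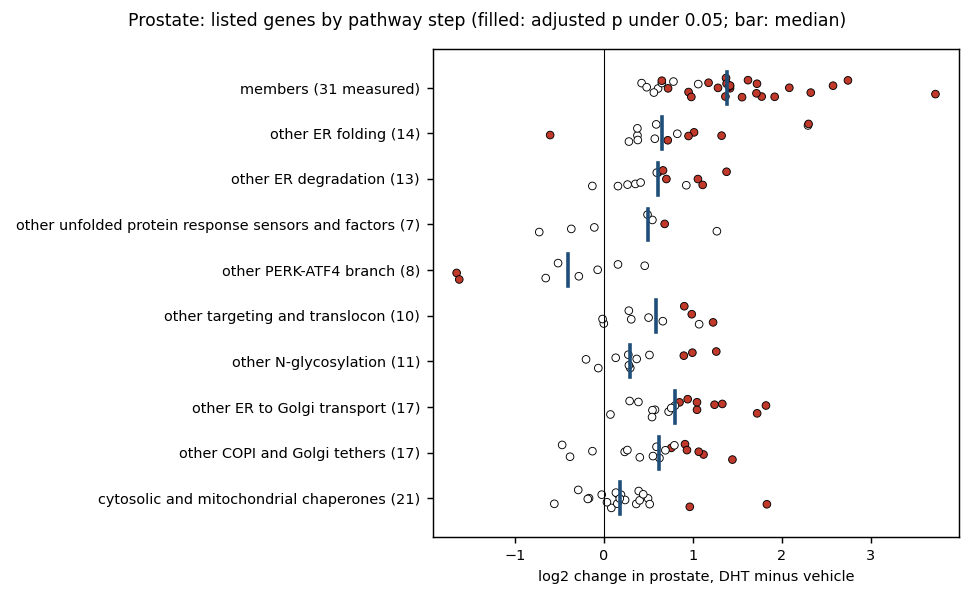
Log2 change with DHT in prostate for the 31 members and for 9 further lists, 1 point a gene, filled where the adjusted p was under 0.05, with a bar at the list's median; vertical scatter within a list has no meaning. The members lie farthest right (median 1.38), the PERK and ATF4 list lies left of 0 (median -0.40), and cytosolic and mitochondrial chaperones lie near 0.18.

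Markers of the cell types in the gland moved in part with DHT. Over all genes tested in prostate 5.09% were higher and 4.57% lower, and the small marker counts were not tested against those shares. Of 7 tested luminal epithelial markers 1 rose and 2 fell (median -0.51). The one that rose was Pbsn, an androgen-dependent secretory protein, by 5.85 on the log2 scale. The keratins Krt8 and Krt19 fell by 0.99 and 1.41, and 3 of the 7 changes were positive. The mean over the luminal list, which includes Pbsn, was 2.86 to 3.55 on vehicle and 3.35 to 3.81 on DHT arrays. This mean therefore does not measure luminal content apart from the rise of Pbsn. Of 4 basal markers 0 rose and 1 fell, and of the 8 smooth muscle and stromal, 2 endothelial and 3 leukocyte markers tested none was called. Plasma cells, which are rich in these same ER genes, had 1 tested marker, Sdc1, which also marks epithelium and fell by 1.17. All 4 tested adipocyte markers rose, by 1.18 to 1.60, and their list mean was -0.64 to -0.09 with vehicle and 0.43 to 0.72 with DHT. The part of these shifts in the changes of the ER genes was not tested.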

How the data were processed

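Amplified RNA carried Cy3 (per the labels' protocols) and was hybridised to Agilent rat arrays, 1 sample an array. The authors deposited scanner output, a linear intensity for each spot. The file headers give Agilent Feature Extraction as version 10.5.1.1 and the submitters' processing notes as 10.1, with limma named there too. The processed signal used here is background-subtracted but not normalized between arrays. Control spots (1417 of 42429) and outlier spots were left out, and no spot was saturated. Accessions without version were matched to RefSeq genes (GRCr8), naming 10813 of 41012 probes. The precision of each value is limited by the number of arrays.

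Levels are log2 of the processed signal minus the array's 75th percentile. Probes well above background on at least 3 arrays fitted were kept, with 1 probe a gene, that of the highest mean signal, and unnamed probes tested under their own identifier. Models were fitted by limma 3.58.1 (lmFit, eBayes; R 4.3.3), first tissue by tissue, and p-values were adjusted after Benjamini and Hochberg at a threshold of 0.05. A fit over all tissues used 8 group means with slide as a random block (correlation 0.0772, estimated on 2000 genes). The procedure was tested on simulated data. The 6 slides held 1 array of each tissue, vehicle on 3 and DHT on the other 3. The series calls the samples biological replicates, but the labels do not name animals, so the p-values refer to the spread among these samples only.

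The 45 genes, the further lists and the tests were chosen with earlier results of these data known. Genes given array by array were, per step, the 3 with the smallest adjusted p in prostate and those with the largest rise and fall in each other tissue; up to 4 called genes of a further list were named by size of change. Hspa5, Hyou1, Canx, Herpud1 and Sel1l in skin, Calr across tissues, Rcn2 and the listed genes named without a call were chosen after their values were seen. Alternatives are given in the closing section. The labels name no pairing of vehicle and DHT samples by replicate number, so the main fits used none. Deviations of same-numbered vehicle and DHT arrays correlated at -0.43 to 0.01, which cannot show how animals were assigned. Normexp correction used the median spot signal.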

Additional observations from a re-analysis of the deposited data

Results flagged for a closer look

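The DHT effect differed between prostate, ovary, skin and forebrain for 15 of the 31 measured genes of ER folding and secretion (moderated F test of limma over 36105 genes), and in each of them the largest effect was that in prostate. Among the chaperones the adjusted p of this difference was 0.000213 for Creld2, 0.00175 for Calr, 0.00383 for Hyou1, 0.0112 for Hsp90b1, 0.0152 for Hspa5, 0.0185 for Dnajb11 and 0.0298 for Dnajc3. It was 0.0358 for the isomerase gene Pdia4. It was 0.0214 for Herpud1 and 0.0475 for Sel1l, both of ER degradation. The translocon genes Ssr1 and Ssr3 had 0.0125 and 0.0111. In vesicle transport it was 0.00890 for Sec22b, 0.00912 for Lman1 and 0.0233 for Kdelr2. No gene of the N-glycosylation step was among them.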

How the results depend on the processing

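All 31 prostate changes stayed positive under every setting tried. The 24 genes called in prostate became 22 with quantile normalization, 22 with the mean of all probes of a gene, 16 with no filter on dim probes, 17 with normexp correction, 27 with probes well above background on all arrays, 30 with array weights and, in a setting added after the data were seen, 25 with outlier spots kept. With each array left out they were 16 to 26 in prostate and 0 in ovary, skin and forebrain. With the replicate number as a block, 0 genes were called in prostate, of the 31 and of all genes, and the difference of the DHT effect between tissues held for 3 in place of 15; between vehicle and DHT arrays the labels give the numbers no shared source, and 0 vehicle arrays correlated best with the DHT array of their own number, while across tissues arrays of 1 treatment and number lay on the same slide. That count of 15 was 28 with array weights, 9 with normexp correction, 5 with forebrain vehicle array 3 and 5 to 22 with single arrays left out. The 19 genes with a larger effect in prostate than the mean elsewhere were 29 with array weights, 12 with forebrain vehicle array 3 and 14 to 21 with single arrays left out. The vehicle level count of 25 was 23 to 26 with single arrays left out and 22 to 27 under the other settings, and the DHT level count was 31 in all of them. With probes well above background on all arrays, 1 gene, Dnajb11, was called in forebrain, in place of 0. Ssr4 in forebrain turned from -0.33 to 0.0486 with forebrain vehicle array 3 (adjusted p = 0.952). All genes called in prostate were 643 with normexp correction, 654 with no filter and 4694 with array weights, against 2452, and in forebrain 522 with normexp correction and 1678 with the stricter filter, against 0. The 35 calls in the further pathway lists were 9 with no filter, 13 with normexp correction and 53 with array weights, and the 2 calls among cytosolic and mitochondrial chaperones were 0 to 4. The prostate effect of Hyou1 over the mean elsewhere, 2.74, was 1.63 with the mean of both probes (adjusted p = 0.236). The cause of these shifts was not tested. Leaving out the 3 compressed vehicle arrays, also added after the data were seen, left the F test count at 15. A saturated or dim signal limits none of the 31 genes, while 2 or 3 arrays a group do.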
